A study of Mus musculus with 16 samples.

Results

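The genes described here encode the proteins of the cytosolic ribosome. They were taken by symbol from the deposited gene count table, as every Rpl or Rps name followed by a digit together with Rplp0, Rplp1, Rplp2 and Rpsa. The Rps6k kinases (10 genes) and names with -ps (7 genes) were left out. This gave 87 of 13275 genes, made up of 46 large-subunit genes, 31 small-subunit genes, 6 paralogs (Rpl7l1, Rpl22l1, Rpl36al, Rpl39l, Rps27l and Rps4l), 3 like-named copies (Rpl32l, Rpl37rt and Rps27rt) and Rps19bp1. The name rule takes in Rps19bp1, although it encodes a nucleolar protein that binds RPS19 and not a ribosomal subunit. Of the 87 genes, 86 passed the filter on low counts and were tested; Rpl39l did not, with 10 and 5 counts in LC3-GFP positive libraries and 4 and 7 in LC3-GFP negative libraries.

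CD8+ T cells came from Pmel-LC3-GFP-RFP mice, whose T cells bear a receptor for a melanocyte antigen and a fluorescent reporter fused to LC3, the protein that coats autophagosomes. After activation for 3 days by antibodies to CD3 and CD28, each at 2 µg/ml, with IL2 at 100 IU/ml, the cells received carbon monoxide (CO) for 24 h and were sorted by LC3-GFP signal, giving a positive and a negative fraction. RNA was sequenced from 2 positive and 2 negative libraries, and open chromatin was mapped by ATAC-seq in 2 positive and 2 negative libraries of cells sorted the same way (in vitro). A further 4 positive and 4 negative ATAC-seq libraries came from Vβ13+CD8+ cells of B16-F10 melanomas, 1 mouse each; the C57BL/6 hosts had carried the tumour for 12 days before they received sorted cells of either kind, and the tumours were taken 15 days after transfer. All 16 libraries derive from CO-exposed cells, so both fractions share the exposure and no unexposed group was analysed here. The groups were defined by reporter fluorescence alone, and the labels state no depletion of the hosts' own lymphocytes. Whether the RNA and in vitro replicates came from separate animals or cultures is not stated, so p-values there reflect variation among these libraries, possibly technical in origin.

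Each ribosome holds 1 copy of nearly every ribosomal protein, bound to ribosomal RNA in a small subunit that reads the mRNA and a large subunit that joins amino acids. The mRNAs of these proteins begin with a C followed by a run of pyrimidines, the terminal oligopyrimidine (TOP) tract, through which the kinase mTORC1 and the RNA-binding protein LARP1 control their translation and stability. In T cells, activation raises ribosome production ahead of division, and ribosomes themselves can be degraded by autophagy, a process called ribophagy.

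The shared TOP feature lies at the start of the transcript. Shown here are 30 bases at or near the annotated start, for genes that fell, rose or were not called in the RNA comparison. In the lines below, capitals mark a C followed by at least 4 pyrimidines that begins between 20 bases before and 40 bases after the RefSeq start. Where there are several, the one beginning nearest the start is marked and the others are left in lower case, and a line without capitals has no such run in that window. Sequences are from RefSeq, assembly GRCm38.p6, each given 5′ to 3′ on the gene's strand. Rps6 at chr4:86857347-86857376 (minus strand), Rps15a at chr7:118116126-118116155 (minus), Rplp2 at chr7:141447639-141447668 (plus) and Rpl24 at chr16:55966265-55966294 (plus) were lower in positive cells. Rpl12 at chr2:32961706-32961735 (plus), Rps27l at chr9:66946079-66946108 (plus) and Rpl7l1 at chr17:46782637-46782666 (minus) were higher. Rpl11 at chr4:136053358-136053387 (minus) and Rpl13a at chr7:45128722-45128751 (minus) were not called. The marked run of Rpl11 begins 14 bases after its RefSeq start, and its line does not reach back to that start.
Rps6: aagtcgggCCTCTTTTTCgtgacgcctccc
Rps15a: tctgccatCTTCCCTCgccggtgagtgagt
Rplp2: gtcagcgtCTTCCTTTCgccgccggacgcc
Rpl24: gctgttgctaggaaacagactgggcgctcg
Rpl12: ggatccgtCTTTTCggctttcggctcggag
Rps27l: ccccgccgCCTCTatcccggaagttgctga
Rpl7l1: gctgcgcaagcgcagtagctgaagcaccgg
Rpl11: ccggaagtCTCCCTCTCTCTTCCTgttctc
Rpl13a: cgacaagaCCTCCTCCTTTCCCaggcggct
Genes with and without the run were thus found on both sides of the comparison, and the longest runs marked, of 16 and 14 bases, belong to the 2 genes that were not called.

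Across the 66 members with a RefSeq promoter window (250 bases before to 50 after the start), 59 (89.4%) had the pyrimidine run near the start, against 63.8% of 10346 genes with such a window. The median log2 fold change was -0.13 for the 58 tested members with the run, of which 22 were lower. It was -0.12 for the 7 without it, of which 2 were lower. Of all genes tested, 13.6% were lower. The motif CCGGAAG, the core of ETS-factor sites, occurred on either strand in 26 members (39.4%) and in 20.0% of genes. CACGTG, the E-box read by MYC and other factors, occurred in 6 members (9.09%) and in 11.6% of genes. TATAAA occurred in 8 members (12.1%) and in 8.44% of genes. A match of letters is a description of the window and no evidence of binding.

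Transcripts of the cytosolic ribosome were slightly lower in LC3-GFP positive than in LC3-GFP negative cells. By edgeR's quasi-likelihood test, with p-values adjusted over all 12022 genes tested, 35 of 86 members (40.7%) fell, where 13.6% of all genes tested fell. In the other direction 5 members (5.81%) rose, where 11.3% of all genes tested rose, and 46 were not called; in either direction 25% of all genes tested were called. The changes were small. The falls ran from -0.44 to -0.13 on the log2 scale, and no member moved by more than 1.5-fold, a size that 614 called genes of the table exceeded. The median log2 fold change of the 86 members was -0.14, beside 0.002 for all genes tested, and 67 of the members lay below 0. Both positive libraries lay below both negative ones for 47 members (54.7%), where 31% of all genes did so, and above them for 6 members, where 30.6% did so. Among the 35 that fell, 34 had no overlap between the groups, a placement that a call from the same libraries favours. Rpl41 was the exception. These shares varied with level. Of 72 members with a mean of 60 CPM or more, 47.2% fell and 61.1% had both positive libraries below both negative ones. Of the 14 members under 60 CPM, 7.14% fell and 21.4% were so placed. The shares of all genes were not matched for level.

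**Figure D1:**
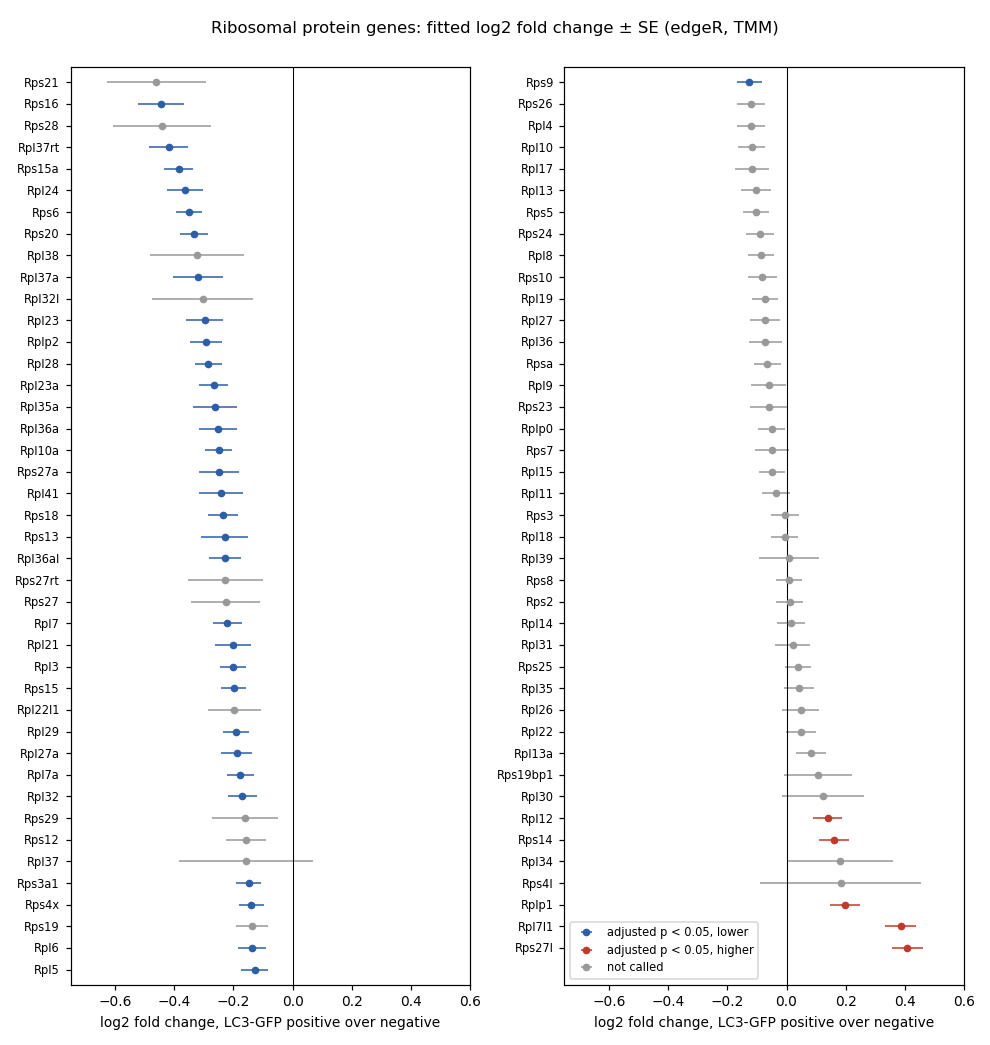
Fitted log2 fold change (positive over negative) with its standard error for 83 of the 86 tested members, sorted from the most negative at the top left to the most positive at the bottom right. Blue marks members that fell (32 drawn), red the 5 that rose and grey the 46 not called; most points lie left of 0, and Rps27l and Rpl7l1 stand furthest to the right.

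The size of this shift varied with the library left out. The member median was -0.17 without negative replicate 1 and -0.15 without positive replicate 2. In such fits the lone sample of a group was assumed to vary like the other group, which affects which genes are called. The level was highest in negative replicate 2 for 51 of 86 members and in negative replicate 1 for 19, and lowest in positive replicate 1 for 49. Without positive replicate 1, 13 members fell and 2 rose, beside 8.46% and 5.56% of all genes; the median was then -0.12. Without negative replicate 2, 36 fell and 9 rose, beside 14.9% and 13.1% of all genes, and the median was -0.09. Scaling counted as well: with library size alone, 21 members fell and 6 rose, the background was 10% lower and 18.6% higher, and the member median was -0.08. The all-gene median was then 0.06. Members stood 0.14 below it, as with TMM scaling, but a change of scaling moves all genes by nearly the same amount. That gap could therefore hardly change and is no separate support. DESeq2 called 24 members lower and 4 higher, where it called 8.03% and 5.76% of genes. Under each of 11 other settings (scaling, filter, tool, replicate block and leaving out each library), 11 members were lower throughout, among them Rps6, Rps15a, Rps18, Rps20, Rpl10a, Rpl23a, Rpl24, Rpl28, Rpl37rt and Rplp2. Rps27l and Rpl7l1 were higher throughout.

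**Figure D2:**
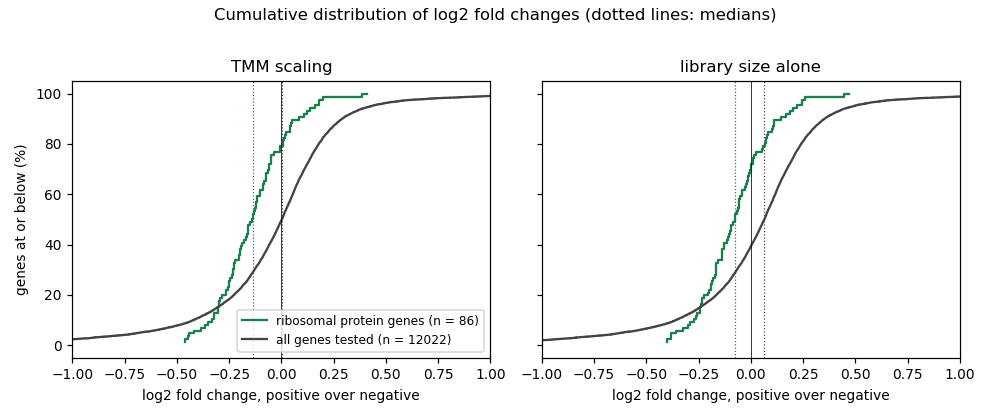
Cumulative share of genes (vertical axis, %) at or below each log2 fold change (horizontal axis, positive over negative) for the 86 members and all 12022 genes tested, under TMM scaling (left) and library size alone (right). The member curve lies to the left of the all-gene curve over most of its range in both panels, with medians of -0.14 and 0.002 on the left and -0.08 and 0.06 on the right. Scaling moves both curves by nearly the same amount, so the gap between them could hardly differ between panels.

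As a share of all counts, the 87 members took 3.75% and 3.81% in positive libraries, against 3.85% and 3.95% in negative libraries. The positive libraries lay below both negative ones, with a mean difference of -0.123 percentage points. The difference was -0.204 points with Rn45s left out of the total, and -0.0738 points without negative replicate 2. A two-sided exact permutation test over 2 against 2 libraries gave p = 0.333, the smallest this design allows. Counts of Rn45s, the precursor of ribosomal RNA, amounted to 1.43% and 1.51% of the positive libraries, against 3.20% and 3.58% of the negative libraries. With Rn45s left out before scaling, 35 members fell and 5 rose, where 1634 of 12024 genes tested fell and 1358 rose. In bulk RNA, fewer cells with a transcript and less of that transcript per cell cannot be told apart.

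In the small subunit, 13 of 31 genes fell and 1 rose, with a median log2 fold change of -0.15. Of all genes tested, 13.6% fell and 11.3% rose. Rps6 (chromosome 4, 86854099 to 86857367) encodes the protein that the S6 kinases phosphorylate downstream of mTORC1. It stood at 600 and 615 CPM (edgeR's library-size-scaled counts, here on TMM-scaled sizes) in positive libraries, against 775 and 776 CPM in negative libraries. The replicates were close together and the groups far apart by comparison, with a log2 fold change of -0.35 ± 0.04 (SE, adjusted p = 1.07e-05). Rps16 (chromosome 7, 28350689 to 28352698), whose protein reaches the tRNA in the decoding region, had 175 and 216 CPM in positive libraries and 245 and 287 CPM in negative libraries. Its log2 fold change of -0.44 ± 0.08 (adjusted p = 0.00038) was the most negative of the called members, with replicates about as far apart within each group, and DESeq2 gave an adjusted p of 0.106.

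Rps15a (chromosome 7, 118104376 to 118116147) encodes a protein of the subunit body and had 162 CPM in each positive library, against 204 and 219 CPM in negative libraries (log2 -0.39 ± 0.05, adjusted p = 1.98e-05). Rps20 encodes a head protein that is ubiquitinated when ribosomes collide. It had 328 and 352 CPM in positive libraries and 433 and 424 CPM in negative libraries (log2 -0.33 ± 0.05, adjusted p = 4.51e-05). Both genes kept the groups apart by more than the spread within either. Rps27a, made as a fusion with ubiquitin, fell by 0.25 on the log2 scale (82.6 and 90.6 CPM in positive and 95.8 and 110 CPM in negative libraries, adjusted p = 0.012). That call was lost without positive replicate 1 (adjusted p = 0.164), without negative replicate 2 (0.0748), with library size alone (0.0571) and with DESeq2 (0.0531).

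Further small-subunit genes that fell were Rps18, Rps13, Rps15, Rps3a1, Rps4x and Rps9, with log2 fold changes between -0.24 and -0.13. Rps18 kept its call under all 11 settings, with -0.15 without negative replicate 2, and the other 5 lost it without positive replicate 1 (adjusted p = 0.0739 to 0.323). Rps21 and Rps28 had fitted log2 values of -0.46 and -0.44, as far from 0 as Rps16, but were not called (adjusted p = 0.053 and 0.0601). Their levels were low and their groups overlapped: Rps21 had 24.2 and 28.9 CPM in positive libraries, against 26.5 and 46.8 CPM in negative libraries. Rpsa, which encodes the protein also known as the laminin receptor, had 1696 and 1734 CPM in positive libraries and 1830 and 1758 CPM in negative libraries (log2 -0.07, adjusted p = 0.324; without negative replicate 2, 0.0117). Rps26, which lines the mRNA exit channel, stood at log2 -0.12 (adjusted p = 0.0682), and Rps19, the gene most often mutated in Diamond-Blackfan anaemia, at -0.14 (adjusted p = 0.076). With 1 library left out at a time, the log2 fold change was -0.17 to -0.07 for Rps26 and -0.23 to -0.04 for Rps19. Among these fits, Rps26 was called only without negative replicate 2 and Rps19 only without negative replicate 1. The lone negative library was then assumed to vary like the positive ones.

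Rps14, whose human counterpart lies in the region deleted in the 5q- syndrome, was the small-subunit gene that rose. It had 491 and 496 CPM in positive libraries, against 415 and 467 CPM in negative libraries (log2 0.16 ± 0.05, adjusted p = 0.0276). The negative libraries lay further apart than the positive ones, and the call was lost without positive replicate 1 (adjusted p = 0.131), positive replicate 2 (0.16) or negative replicate 1 (0.128).

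In the large subunit, 20 of 46 genes fell and 2 rose, where 13.6% of all genes tested fell and 11.3% rose. The median log2 fold change of the subunit was -0.12. Rpl24 (chromosome 16, 55966275 to 55971437) encodes a protein of a bridge between the subunits and is the gene altered in the mouse Belly spot and tail mutant. It had 89.0 and 92.7 CPM in positive libraries, against 124 and 110 CPM in negative libraries (log2 -0.36 ± 0.06, adjusted p = 0.000278). Negative replicate 1 was its highest library, unlike in most members. Rpl23, whose protein can bind the p53 regulator MDM2, had 255 and 281 CPM in positive libraries, against 303 and 356 CPM in negative libraries (log2 -0.30 ± 0.06, adjusted p = 0.00211; DESeq2 0.14). Without negative replicate 2 its log2 fold change was -0.18. Rpl37a, a zinc-binding protein, had 34.5 and 36.6 CPM in positive libraries and 41.4 and 47.5 CPM in negative libraries (log2 -0.32 ± 0.08, adjusted p = 0.00907). It was the only one of the 14 members with a mean under 60 CPM to be called, and it lost the call without positive replicate 1 (adjusted p = 0.0847), without negative replicate 2 (0.0682) and with DESeq2 (0.0629).

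Further large-subunit genes that fell, Rplp2 and Rpl5 apart, were Rpl28, Rpl23a, Rpl35a, Rpl36a, Rpl10a, Rpl41, Rpl7, Rpl21, Rpl3, Rpl29, Rpl27a, Rpl7a, Rpl32 and Rpl6, between -0.28 and -0.14 on the log2 scale. Rpl28, Rpl23a and Rpl10a kept the call under all 11 settings, and the other 11 lost it without positive replicate 1 (adjusted p = 0.0778 to 0.342). Rpl41 encodes the shortest of the ribosomal proteins. It had 316 and 354 CPM in positive libraries, against 353 and 441 CPM in negative libraries (log2 -0.24 ± 0.07, adjusted p = 0.0223), so positive replicate 2 lay just above negative replicate 1. The call was lost without positive replicate 1 (adjusted p = 0.187) and without negative replicate 2 (log2 -0.08, adjusted p = 0.165), with library size alone (0.0958) and with DESeq2 (0.46). Rpl10, which joins the subunit last and lies by the peptidyl transferase centre, was not called (log2 -0.12, adjusted p = 0.0663). It had 389 and 391 CPM in positive libraries, against 410 and 436 CPM in negative libraries. With 1 library left out at a time its log2 fold change was -0.16 to -0.07. Among these fits it was called only without negative replicate 1. Rpl13a, known outside the ribosome for silencing inflammatory mRNAs in human myeloid cells, had 1011 and 1021 CPM in positive libraries and 901 and 1017 CPM in negative libraries. Its groups overlapped (log2 0.08, adjusted p = 0.267), and without negative replicate 2 it was called higher at 0.17 (adjusted p = 4.87e-06), as it was with library size alone at 0.15 (0.0476). Of the 4 members on the X chromosome, Rpl36a and Rps4x fell and Rpl10 and Rpl39 were not called. Rps4x had 1134 and 1122 CPM in positive libraries, against 1231 and 1254 CPM in negative libraries (log2 -0.14, adjusted p = 0.0248), a call lost when positive replicate 1 (0.248) or positive replicate 2 (0.318) was left out and under library size alone (0.174). Rpl39 had 47.2 and 51.8 CPM in positive libraries and 42.1 and 56.6 CPM in negative libraries (log2 0.01, adjusted p = 0.968), with overlapping groups; leaving out negative replicate 2 gave a called 0.23 (adjusted p = 0.0394) and leaving out negative replicate 1 gave -0.19 (0.0828).

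The stalk of the large subunit, which recruits the translation factors, did not move as a unit. Rplp1 (chromosome 9, 61913283 to 61914510) and Rplp2 (chromosome 7, 141447650 to 141451342) encode the acidic proteins that pair with each other on the stalk. Rplp1 rose, with 440 and 396 CPM in positive libraries and 365 CPM in each negative library (log2 0.20 ± 0.05, adjusted p = 0.00733). Rplp2 fell, with 152 and 157 CPM in positive libraries and 180 and 200 CPM in negative libraries (log2 -0.29 ± 0.05, adjusted p = 0.00063). Neither gene had overlapping groups. Rplp0, the protein that anchors both pairs, had 2921 and 3009 CPM in positive libraries, against 3032 and 3106 CPM in negative libraries (log2 -0.05, adjusted p = 0.473). Rpl12, at the base of the stalk, had 219 and 206 CPM in positive libraries and 193 CPM in each negative library (log2 0.14 ± 0.05, adjusted p = 0.0423).

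Counted within each library, where scaling cancels, there were 289 and 252 Rplp1 counts per 100 Rplp2 counts in positive libraries, against 203 and 182 in negative libraries. The log2 ratio was 0.49 higher in positive libraries, without overlap, a comparison added after the values were seen. A processed copy of Rplp2 on chromosome 12, Rplp2-ps1, held 7591 and 6825 counts in positive libraries, more than the 2735 and 2503 of Rplp2 itself, against 7271 and 6748 counts in negative libraries, where Rplp2 had 2775 and 2859. With both summed, Rplp2 still fell, by 0.19 on the log2 scale (adjusted p = 0.00388). The Rplp1 call was lost without positive replicate 1 (adjusted p = 0.311). For Rpl12, the call ended without either positive library (adjusted p = 0.464 without replicate 1 and 0.0804 without replicate 2) and with DESeq2 (0.127).

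Rpl5 and Rpl11 travel together with 5S ribosomal RNA and, when free of the ribosome, bind MDM2. Rpl5 had 557 and 578 CPM in positive libraries, against 605 and 635 CPM in negative libraries (log2 -0.13 ± 0.04, adjusted p = 0.0437). Rpl11 had 229 and 220 CPM in positive libraries and 224 and 236 CPM in negative libraries (log2 -0.03, adjusted p = 0.644), with overlapping groups. Leaving out positive replicate 1 (adjusted p = 0.432) or positive replicate 2 (0.184) ended the Rpl5 call, as did library size alone (0.277) and DESeq2 (0.074).

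**Figure D3:**
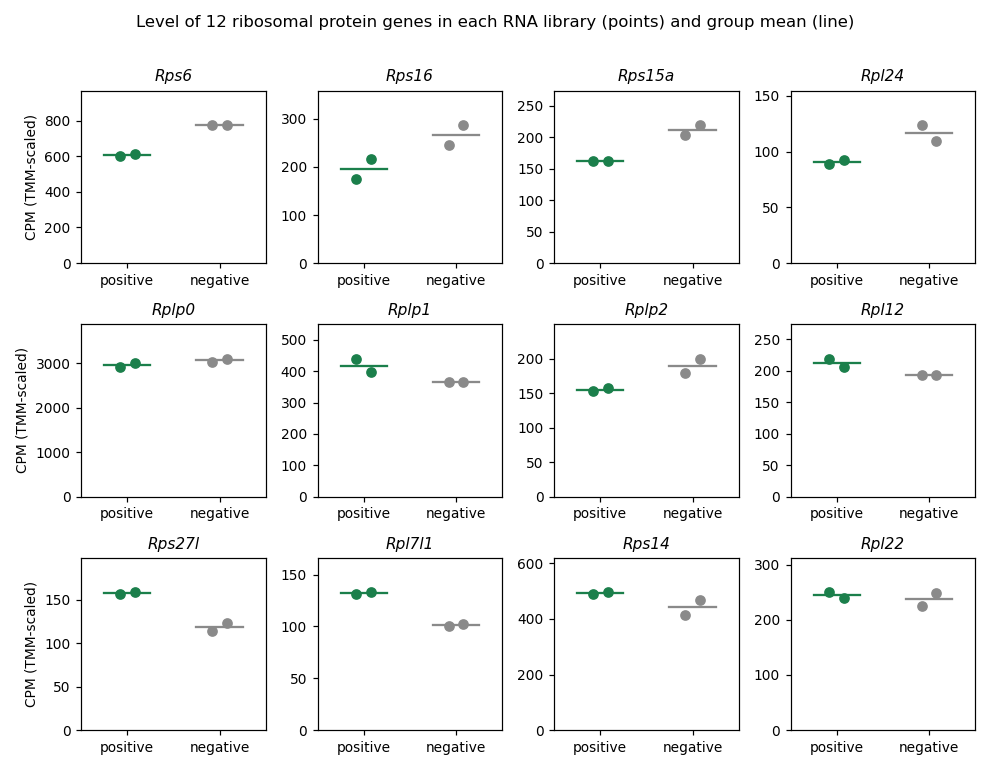
Level in CPM on TMM-scaled library sizes (vertical axes, each starting at 0) of 12 members in the 2 positive (green, left) and 2 negative (grey, right) RNA libraries; points are libraries and lines group means. Rps6, Rps16, Rps15a, Rpl24 and Rplp2 lie lower in the positive libraries, Rplp1, Rpl12, Rps27l, Rpl7l1 and Rps14 higher, and Rplp0 and Rpl22 were not called.

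The largest rises among the members were in paralogs. Rps27l (chromosome 9, 66946076 to 66949522) encodes a close relative of RPS27 and is a known p53 target. It had 156 and 159 CPM in positive libraries, against 114 and 123 CPM in negative libraries, and was 1.33-fold higher (log2 0.41 ± 0.05, adjusted p = 1.98e-05). Rpl7l1 (chromosome 17, 46773907 to 46782656) encodes a relative of RPL7 found on large-subunit precursors in the nucleolus. It had 131 and 133 CPM in positive libraries, against 100.1 and 102 CPM in negative libraries, and was 1.31-fold higher (log2 0.39 ± 0.05, adjusted p = 3.11e-05). In both genes the groups were far apart beside the spread of their replicates.

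Their partners went the other way or were not called. Rpl7 fell, with 1262 and 1349 CPM in positive libraries, against 1562 and 1479 CPM in negative libraries (log2 -0.22 ± 0.05, adjusted p = 0.00253; without positive replicate 1, 0.169). Rps27 had 18.4 and 22.4 CPM in positive libraries and 21.7 and 26.1 CPM in negative libraries (log2 -0.23, adjusted p = 0.177; without negative replicate 1, 0.0161), with overlapping groups. Within libraries there were 10.4 and 9.87 counts of Rpl7l1 per 100 of Rpl7 in positive libraries, against 6.41 and 6.92 in negative libraries, a log2 ratio 0.61 higher in positive libraries. The log2 ratio of Rps27l to Rps27 was 0.63 higher, with 845 and 707 counts per 100 in positive libraries and 526 and 472 in negative libraries. Counts of Rps27 are uncertain, because Rps27rt occupies the same stretch of chromosome 3 in the deposited table and the authors' handling of shared reads is not given.

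Rpl22l1, which encodes a paralog that RPL22 represses in mouse cells, ran in the opposite direction to those pairs. It had 28.6 and 27.3 CPM in positive libraries, against 30.2 and 34.0 CPM in negative libraries (log2 -0.20, adjusted p = 0.121; without negative replicate 1, 0.035). Rpl22, which T cells need in development, had 250 and 240 CPM in positive libraries and 225 and 249 CPM in negative libraries (log2 0.05, adjusted p = 0.542; without negative replicate 2 it was called at 0.13, adjusted p = 0.0251). There were 11.4 Rpl22l1 counts per 100 of Rpl22 in each positive library, against 13.5 and 13.7 in negative libraries (log2 ratio difference -0.25). Rps4l, with 54 and 53 counts in positive and 47 and 36 in negative libraries, had a log2 ratio to Rps4x 0.33 higher in positive libraries. Rpl36al fell (145 and 161 CPM in positive and 182 and 177 CPM in negative libraries, log2 -0.23, adjusted p = 0.00456; without positive replicate 1, 0.194) along with Rpl36a (78.8 and 81.9 CPM in positive and 101 and 90.1 CPM in negative libraries, log2 -0.25, adjusted p = 0.00706). The Rpl36a call was lost without positive replicate 1 (adjusted p = 0.0778) and without negative replicate 1 (0.0584). The ratio of Rpl36al to Rpl36a differed by 0.02 with overlapping groups, as did that of Rpl39l to Rpl39, by 0.18. Of the 6 pairs tested, 4 had groups that did not overlap. Among all single genes tested, 31% had both positive libraries below both negative ones and 30.6% above them. Pairs thus stood apart about as often as single genes do. With 2 against 2 libraries an exact permutation p cannot be below 0.333, and the adjusted p of those 4 pairs was 0.5.

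**Figure D4:**
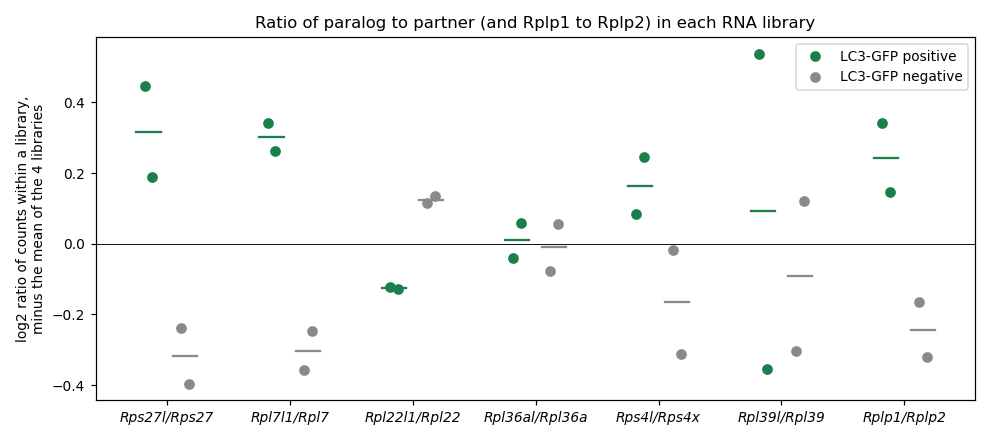
Log2 ratio of counts of each paralog to its partner, and of Rplp1 to Rplp2, in each RNA library after subtracting the mean of the 4 libraries (vertical axis); points are libraries, lines group means, positive (green) left of negative (grey). The groups are apart for Rps27l, Rpl7l1, Rpl22l1, Rps4l and Rplp1 and overlap for Rpl36al and Rpl39l.

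Processed copies are numerous in this family, and the table splits some genes in ways that cannot be resolved from counts. Rpl37 on chromosome 15 was listed at 64.4 to 76.3 counts per library, while the copy named Rpl37rt on chromosome 5 (115102922 to 115110268) held 3396 and 3631 counts in positive libraries and 4117 and 4159 in negative libraries. Rpl37rt had 189 and 228 CPM in positive libraries, against 266 and 291 CPM in negative libraries (log2 -0.42 ± 0.07, adjusted p = 0.000161), and the summed pair was at -0.41. Rps15a shared its family with Rps15a-ps4 and Rps15a-ps6, and with these added it stayed lower, at -0.26 (adjusted p = 0.000612). Rpl34 had fewer counts (150 to 321) than Rpl34-ps1 (2079 to 2803), which overlies it on chromosome 3, and the sum did not differ (log2 0.07, adjusted p = 0.435). With every like-named copy added to its gene, 35 of 83 members fell and 5 rose. Of 12012 genes tested, 1644 then fell and 1365 rose.

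Genes tied to the ribosome but outside the name rule were read from the same fit. Among other components of the small subunit, the scaffold gene Rack1 had 1435 and 1384 CPM in positive libraries, against 1524 and 1501 CPM in negative libraries (log2 -0.10, adjusted p = 0.105). Fau, whose product is a fusion of a ubiquitin-like protein with a small-subunit protein, had 51.5 and 51.3 CPM in positive libraries and 51.3 and 69.0 CPM in negative libraries (log2 -0.22, adjusted p = 0.107). Neither was called here; without negative replicate 1 both were, as lower, and without negative replicate 2 Rack1 was. Of 21 other transcripts known or listed as TOP mRNAs, most of them for translation factors, 8 fell and none rose by edgeR, with a median of -0.08, where 13.6% of all genes fell and 11.3% rose. Among them were Vim, which encodes the intermediate filament vimentin (log2 -0.43), the elongation factor gene Eef1a1 (-0.42) and the initiation factor gene Eif3f (-0.34). Eef1a1 had 6688 and 6718 CPM in positive libraries, against 9334 and 8647 CPM in negative libraries. Without positive replicate 1, 4 of these transcripts fell, where 8.46% of all genes did.

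For genes that control TOP translation, 2 of 15 fell and 2 rose, shares close to the 13.6% and 11.3% of all genes. Eif4ebp1, the cap-binding inhibitor that mTORC1 switches off, fell by 0.50 on the log2 scale (83.4 and 83.6 CPM in positive libraries, against 118 CPM in each negative library, adjusted p = 2.89e-06). Larp4, which binds poly(A) tails, rose (208 and 216 CPM in positive libraries, 165 and 153 CPM in negative libraries, log2 0.41, adjusted p = 1.1e-05). Rptor, the mTORC1 scaffold, fell by 0.19 on the log2 scale, a call lost without positive replicate 2 (adjusted p = 0.411), with library size alone (0.131) and with DESeq2 (0.148). With library size alone 1 gene of this list fell and 5 rose, where 10% of all genes fell and 18.6% rose. The balance of this list and that of all genes thus both moved with the scaling. Fewer genes of this list, and fewer of all genes, were called when either positive library was left out. With 1 library left out at a time, log2 fold changes were -0.50 to -0.49 for Eif4ebp1, 0.36 to 0.47 for Larp4 and -0.27 to -0.12 for Rptor.

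Chaperones that carry single ribosomal proteins and the 5S particle were higher in 5 of 9 cases and lower in none by edgeR (median 0.25), where 11.3% of all genes were higher and 13.6% lower. Tsr2, the escort of RPS26, had 25.3 and 26.2 CPM in positive libraries, against 19.2 and 19.6 CPM in negative libraries (log2 0.41, adjusted p = 0.00507). Grwd1, which binds RPL3, rose by 0.32 (adjusted p = 0.00477; without positive replicate 1, 0.0757), and Mdn1, the ATPase that matures large subunits, by 0.31 (195 and 191 CPM in positive libraries, 156 CPM in each negative library, adjusted p = 0.000114). Without positive replicate 1, 3 of the list rose, where 5.56% of all genes did.

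Of 13 genes for ribosome collision, rescue and quality control, 3 rose and none fell by edgeR, where 11.3% of all genes rose and 13.6% fell. Ltn1, the ubiquitin ligase that tags stalled nascent chains, had 145 CPM in each positive library and 109 and 110 CPM in negative libraries (log2 0.40, adjusted p = 1.57e-05). Abce1, which splits ribosomes, had 317 CPM in each positive library and 258 and 253 CPM in negative libraries (log2 0.31, adjusted p = 5.47e-05). Map3k20, the kinase ZAK that senses collided ribosomes, rose by 0.49 (adjusted p = 0.00529; without positive replicate 1, 0.173). Leaving out a negative library added calls to this list, lower without replicate 2 and higher without replicate 1. With 1 library left out at a time, log2 fold changes were 0.39 to 0.41 for Ltn1, 0.30 to 0.33 for Abce1 and 0.30 to 0.65 for Map3k20. Of 6 genes for ribophagy and ribosome deubiquitination, the deubiquitinase gene Usp10 (0.23) and its partner G3bp1 (0.17) rose, and neither passed without positive replicate 1 (adjusted p = 0.117 for each); G3bp1 did not pass without positive replicate 2 either (0.0975). Of all genes, 11.3% rose and 13.6% fell. This list of 6 and the next of 4 genes are too short to be judged against those shares. In the RP-MDM2-p53 list of 4 genes, Trp53 rose by 0.17 and its target Cdkn1a fell by 0.13 on the log2 scale. Without positive replicate 1 their adjusted p was 0.15 and 0.281, without positive replicate 2 it was 0.0938 and 0.304, and Cdkn1a also lost its call without negative replicate 2 (0.08), with library size alone (0.281) and with DESeq2 (0.0789). The calls of this list also changed without negative replicate 1. With 1 library left out at a time, log2 fold changes were 0.13 to 0.21 for Trp53 and -0.17 to -0.08 for Cdkn1a.

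Library totals were 17557628 and 15605902 counts in positive libraries and 15850657 and 14567540 in negative libraries. The sorted cells carried the CD8 T cell markers, all 10 of which were listed and 6 of which fell, where 13.6% of all genes fell; they summed to 2873 and 2906 CPM in positive libraries, against 3117 and 3192 CPM in negative libraries. Of 6 listed B cell and plasma cell markers, 5 were higher, where 11.3% of all genes were, with sums of 15.0 and 13.5 CPM in positive libraries and 4.47 and 6.01 CPM in negative libraries; Ms4a1 was at 0 in negative replicate 1. Of 6 listed myeloid and dendritic markers, 3 were higher and 2 lower. Their summed levels were close (positive libraries 69.5 and 74.5 CPM, negative libraries 75.4 and 79.7 CPM), but single genes moved far in opposite directions. H2-Ab1 made up most of each sum and fell (positive 46.7 and 52.2 CPM, negative 67.0 and 71.3 CPM, log2 -0.48). Cd68 also fell (log2 -1.54). Cd74 rose (positive 16.3 and 14.6 CPM, negative 0.841 and 1.33 CPM, log2 3.84), as did H2-Aa (log2 3.87). Mpeg1 rose as well (log2 5.06) and was at 0 in negative replicate 1. Of the 2 tested CD4 T cell markers, Cd4 itself rose, with 4.40 and 3.39 CPM in positive libraries, against 0.971 and 0.699 CPM in negative libraries (log2 2.21, adjusted p = 0.000144). Zbtb7b fell, with 54.2 and 50.2 CPM in positive libraries and 76.2 and 69.5 CPM in negative libraries, and it made up most of the summed level of 53.6 to 58.6 CPM in positive and 70.2 to 77.2 CPM in negative libraries. The NK marker Klrb1c stood at 1.56 and 2.95 CPM in positive libraries, against 5.76 and 7.69 CPM in negative libraries, and neither of the 2 tested melanoma and stroma markers was called. The part of these markers in the ribosomal protein differences was not tested.

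At the chromatin level the ribosomal protein genes were open in both populations. Of the 86 members that could be placed on the genome (Rps27rt could not), 81 had a deposited ATAC peak within 500 bp of their RefSeq start in all 12 libraries. These 81 included 76 of 77 subunit genes and 34 of the 35 genes that fell. In vitro, 82 and 81 members had a start peak in positive libraries, against 81 in each negative library. In tumours, 81 members had one in each of the 4 positive and 4 negative libraries. Two-sided exact permutation tests found no difference (p = 1 in both experiments), where the smallest possible p was 0.333 in vitro and 0.0286 in tumours. Almost every member was already at the ceiling of this measure, so it could register few differences.

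Among all 12916 genes that could be placed, 90.3% and 89.3% had a start peak in positive in vitro libraries, against 89.7% and 89.0% in negative ones. In tumours the share averaged 86.1% ± 1.56 in positive and 87.7% ± 1.18 in negative libraries (SD, n = 4 each, exact permutation p = 0.229). The members without a peak in every library were Rps4l, with a peak in positive in vitro replicate 1 only, and Rpl17, Rpl32l, Rpl37rt and Rpl39l, with none. For Rpl17 this depends on the annotation: with the gene starts of the deposited count table it had a peak in all 12 libraries, and Rpl22 had none.

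**Figure D5:**
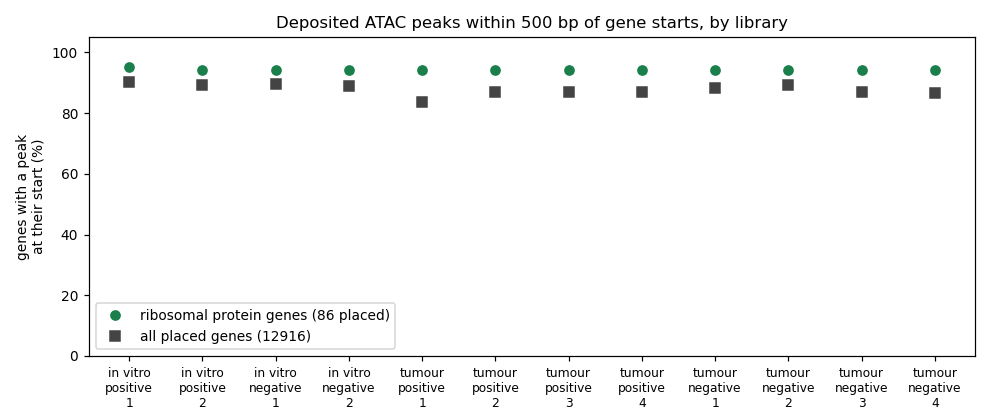
Share of genes (vertical axis, %) with a deposited ATAC peak within 500 bp of the gene start in each of 12 libraries, for the 86 placed members (green circles) and all 12916 placed genes (dark squares), positive left of negative within each experiment. Members sit at 94.2% or 95.3% in every library and all genes between 83.8% and 90.3%.

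Peak strength is given by the authors' fold enrichment, each peak set against its own library's surroundings. At the member starts its median was 4.60 and 5.30 in positive in vitro libraries and 5.51 and 6.27 in negative ones. In tumours the medians ran from 5.50 to 6.84 in positive libraries and from 5.11 to 7.69 in negative libraries. In each of the 12 libraries the member median lay below the median over all genes with a start peak, for instance 4.60 beside 5.31 in positive in vitro replicate 1. Values of different libraries were not tested against each other, because their read depth is unknown. In positive in vitro replicate 1, the enrichment was 3.90 to 6.39 (median 5.44) at the starts of the 5 members that rose, with Rpl12 lowest and Rpl7l1 highest. It was 2.25 to 7.27 (median 4.41) for the 34 that fell and had a start peak, so the ranges overlapped, and 2.29 to 7.21 (median 4.67) for the 43 not called.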

How the data were processed

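RNA values are estimated counts per gene as deposited by the authors, not scaled, of which 22.5% to 23.8% per library are not whole numbers. The submitters' processing notes name Partek, STAR and DESeq2 on mm10 for them; the counting method, strandedness, handling of shared reads and versions are not given in the sources used here. ATAC values are peaks called in each library, deposited by the authors and made with Partek, cutadapt, BWA and MACS2 per the same notes. Per the file headers, each peak has a position, a fold enrichment and −log10 of its p-value and q-value; read depth is unknown.

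Counts were rounded, filtered (filterByExpr), scaled by TMM and tested with edgeR 4.0.16 (quasi-likelihood, Benjamini-Hochberg, threshold 0.05) in R 4.3.3. DESeq2 1.42.0 was an alternative. Paralog ratios had 0.5 counts added, and scipy 1.17.1 gave exact permutation tests. A start peak overlapped the 500 bp either side of a RefSeq start by at least 1 bp. The scripts were tested on simulated data. RNA depth was 14567540 to 17557628 counts per library, and ATAC precision is limited by the number of libraries.

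Members and lists were chosen with earlier results of these data known. Members named were the 10 called with the most negative and the 10 with the most positive log2 fold change (5 rose), the paralog pairs, a list by role, those lacking a start peak, and up to 3 called genes per outside list; others named were chosen after their values were seen. Some genes that the rule takes are not reported here, though they stay in the counts. Members were not ranked by level per length, since transcript lengths were not used here. Rpl3l and Rpl10l were not listed, so their pairs were left out.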

Additional observations from a re-analysis of the deposited data

Results flagged for a closer look

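Tumour ATAC positive replicate 1 lay apart from the other 3 positive libraries of that group in the share of all placed genes with a start peak (83.8%) and in the number of peaks listed (27406). The number of ribosomal protein genes with a start peak was 81 in that library, as in the other 7 tumour libraries. Of 8 groups of values examined for an outlying sample, 2 held one, both from this library. These 2 measures are not independent, because both come from its peak list. Groups of member counts, at 81 in every tumour library, could not hold an outlier. The chance rate of about 1 in 20 groups therefore does not apply directly here.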

How the results depend on the processing

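Library size alone in place of TMM called 21 members lower, with a median log2 fold change of -0.0757, and put Rpl11 (0.0274) and Rplp0 (0.0124) above 0. DESeq2 called 1688 genes in all (983 lower, 705 higher), where edgeR called 3000, and 23 of its 24 lower members were among the 35. The other normalizations, the omission of Rn45s and the absence of a filter gave 35 or 36 members lower and 5 higher. Leaving out 1 RNA library at a time, after which the lone sample of a group was assumed to vary like the other group, gave 13 to 50 members lower, 2 to 9 higher, and 1722 to 3451 genes in all. Of these, 1722 was the count with positive replicate 1 left out, and leaving out positive replicate 2 gave 1806. The sign turned for Rpl39 (-0.19 to 0.23), Rpl22 (-0.0247 to 0.13), Rpl13a (-0.00134 to 0.17) and Rpl11 (-0.0717 to 0.00292), none of them called here. It also turned for the log2 ratios of Rpl36al to Rpl36a (-0.0472 to 0.0858) and Rpl39l to Rpl39 (-0.26 to 0.63), while the other 4 ratios kept their sign. In vitro, the difference in members with a start peak was 0.5 and became 0 with peaks of -log10 q of at least 5, 1 with the summit inside the window and 1.5 with the gene body and 2 kb upstream; leaving out libraries gave 0 to 1. In tumours it was 0 and became -0.75 (exact permutation p = 0.143) with the gene body and 2 kb upstream. The cause of these shifts was not tested.

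With the replicate number as a block, 42 members fell and 5 rose, and 3568 genes were called; Rps26 (adjusted p = 0.0315), Rps19 (0.0123) and Rpl10 (0.0318) gained a call. The labels give only a number, and same-numbered samples deviated together with a correlation of 0.065 over all genes and 0.385 over members, so the pairing is not established. With 2 libraries per group, ratios and shares cannot reach a permutation p under 0.333. Of the 35 members that fell, 24 lost their call in at least 1 of the 11 settings, as did 3 of the 5 that rose. Low counts limit Rpl39l, Rps4l, Rpl37, Rps28 and Rpl38, and processed copies make the counts of Rpl34, Rpl37, Rps15a, Rplp2, Rpl14 and Rps27 uncertain. Peak lists have no depth, and the start-peak count was near its ceiling.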
